A study of Mus musculus with 12 samples.

Results

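Neural stem cell and Notch-Id genes are described here in the frontal cortex of mice that lack Upf3b. The set holds 10 genes, Sox2, Id1, Id3, Id4, Hes1, Hes5, Notch1, Prom1, Mki67 and Vim, chosen by symbol from the 14909 genes of the count table. All 10 were in the table and all 10 passed the filter on low counts, as did 14274 genes in all. Bulk RNA sequencing compared 7 wild-type (WT) with 5 Upf3b knockout (KO) C57BL/6 mice, 1 library per mouse, numbered WT 1 to 7 and KO 1 to 4 and 6. The sources used here give no age, sex, substrain or construction of the Upf3b allele. Neither group is described as treated. Upf3b encodes a factor of nonsense-mediated mRNA decay (NMD), which removes transcripts with premature stop codons, and the question was which genes differ in the cortex without it. The series' title speaks of a neurogenesis defect, a process in which these genes are known to act.

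In neural stem cells the receptor Notch1 is cleaved after a ligand on a neighbouring cell binds it. Its freed intracellular part joins the DNA-binding protein RBPJ and switches on Hes1 and Hes5, repressors that hold back neuronal differentiation. Id1, Id3 and Id4 are induced by bone morphogenetic proteins (BMPs) and block the same step by binding basic helix-loop-helix (bHLH) E proteins, which then cannot pair with proneural factors on DNA. Sox2 maintains the stem cell state, Prom1 and Vim encode a membrane glycoprotein and an intermediate filament used as stem cell markers, and Mki67 marks dividing cells. In the adult cortex, where few cells divide, most of these genes are known from astrocytes, oligodendrocyte precursors and blood vessels.

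The genes lie on 7 chromosomes of mm10 (GENCODE M21 gene bounds on GRCm38): Sox2 at chr3:34650405-34652461, Id1 at chr2:152736251-152737410, Id3 at chr4:136143497-136145755, Id4 at chr13:48261228-48266026 and Hes1 at chr16:30064384-30067796. Hes5 lies at chr4:154960923-154962371, Notch1 at chr2:26457903-26516663, Prom1 at chr5:43993620-44102032, Mki67 at chr7:135689784-135716361 and Vim at chr2:13573927-13582826. Reads were counted per gene, so exons, introns and UTRs were not measured apart.

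RBPJ binds a core of TGGGAA, and the Hes5 promoter is a textbook example of a promoter with such sites. Of the 10 genes 8 had a promoter window, 250 bases before to 50 after the start, in RefSeq's GRCm38.p6 annotation, and Prom1 had 2 windows. TGGGAA was searched on both strands (as TGGGAA or TTCCCA) and stood in 3 of the 9 windows, those of Hes5, Id4 and Prom1, against 25.6% of all 32851 windows of this length. The 3 windows are shown since they hold the motif of the Notch pathway, with the motif in capitals and the strand of the gene written 5′ to 3′. They are Hes5 at chr4:154960673-154960972 on the plus strand, Id4 at chr13:48260866-48261165 on the plus strand and the first Prom1 window at chr5:44101687-44101986 on the minus strand.
Hes5: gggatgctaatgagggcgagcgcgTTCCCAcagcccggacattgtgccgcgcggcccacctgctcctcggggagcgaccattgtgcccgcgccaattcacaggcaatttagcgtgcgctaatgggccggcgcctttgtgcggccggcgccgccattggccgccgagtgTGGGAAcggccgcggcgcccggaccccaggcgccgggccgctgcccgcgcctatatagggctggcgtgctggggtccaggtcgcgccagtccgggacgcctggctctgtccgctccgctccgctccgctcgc
Id4: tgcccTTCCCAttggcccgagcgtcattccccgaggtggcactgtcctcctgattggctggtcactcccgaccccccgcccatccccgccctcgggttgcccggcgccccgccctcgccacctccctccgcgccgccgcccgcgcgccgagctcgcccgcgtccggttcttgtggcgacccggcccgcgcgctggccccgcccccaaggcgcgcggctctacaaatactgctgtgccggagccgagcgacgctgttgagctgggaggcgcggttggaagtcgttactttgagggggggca
Prom1: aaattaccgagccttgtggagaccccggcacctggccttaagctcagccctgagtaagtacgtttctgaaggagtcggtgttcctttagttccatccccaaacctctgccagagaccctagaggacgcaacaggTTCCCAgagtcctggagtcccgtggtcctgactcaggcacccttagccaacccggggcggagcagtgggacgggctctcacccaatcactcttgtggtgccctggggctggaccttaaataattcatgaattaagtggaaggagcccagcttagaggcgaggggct
Hes5 held the motif at -226 and -82 from its start, Id4 at -245 and Prom1 at -116. The HES protein motif CACNAG, searched in the same way and with no overlap rule against TGGGAA, stood in 5 of the 9 windows (Vim, Notch1, Id4 and both of Prom1), against 42.5% of all windows. The members differed otherwise in structure. Sox2 has a single exon in its RefSeq-matched transcript, as do 3.13% of 14228 tested genes with a match. Prom1, with up to 28 exons, was the 1 member with a transcript annotated in GENCODE M21 as an NMD target, against 26.6% of the tested genes. Counts were per gene, so that transcript was not measured apart.

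Upf3b itself ran from 33.8 to 40.9 CPM (a gene's count scaled to a common library size) in WT and from 1.71 to 3.79 CPM in KO, so no library went against its label. Library totals ran from 4684039 to 5425774 counts in WT and from 4990643 to 6617759 in KO, and 4 of the 5 KO libraries were deeper than every WT library. Across all genes the log2 fold change fell with the count per exonic base, called count density here, from a median of 0.25 in the lowest of 10 equal bins of genes to -0.18 in the highest. The 10 genes are therefore given as fitted, then with offsets (density offsets) that take out each library's own trend, then with the total of the library as a covariate. Since the totals largely follow the groups, the covariate fit cannot tell depth and genotype apart. The SEs of the 10 genes are larger in it. Summed neuronal markers ran from 4258 to 4817 CPM in WT and from 3683 to 4551 in KO, where 4 of the 5 mice lay below every WT mouse. Markers of neighbouring tissue differed between mice of a group: summed choroid plexus markers ran from 9.88 to 113 CPM and striatal markers from 802 CPM in WT 5 to 1991 CPM in WT 4, and KO 2 had the highest striatal sum of the KO libraries (1627 CPM). Nothing in the labels says that the libraries of a group came from separate litters, so the p values measure the spread between these 12 mice.

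With edgeR's quasi-likelihood test 4 of the 10 genes were higher in KO (Id1, Prom1, Mki67 and Vim) and 3 were lower (Sox2, Id3 and Id4), at a Benjamini-Hochberg adjusted p under 0.05 over all tested genes. Of all tested genes 15.3% were called higher and 14.4% lower. Hes1, Hes5 and Notch1, the receptor and its classical targets, did not pass. With density offsets 1 gene was higher (Vim) and 2 were lower (Sox2 and Id4), against 8.37% and 8.02% of all genes. With the total as a covariate none of the 10 passed in edgeR, against 0.588% of all genes called higher and 0.0771% lower. In that fit an unadjusted p was under 0.05 in 4 of the 10, and the share of all genes at that cutoff was not taken. DESeq2, fitted without the covariate, called 2 of the 10 higher and 2 lower. Over all genes DESeq2 called 1676 higher and 2191 lower. The plot of levels by library shows each value.

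**Figure D1:**
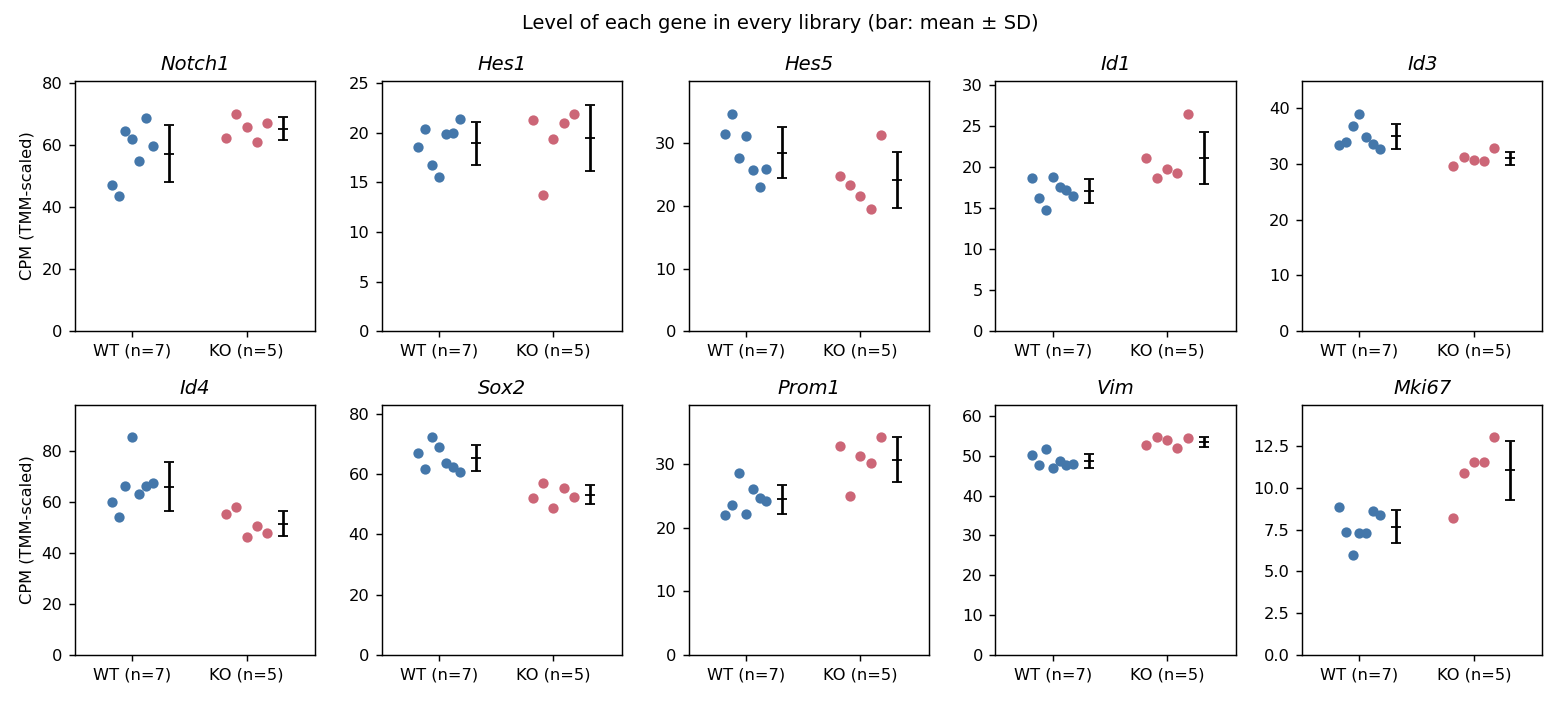
TMM-scaled CPM (vertical axes from 0) of each of the 10 genes in the 7 WT (blue) and 5 KO (red) libraries, with the mean and SD as bars. The groups do not overlap for Sox2 (KO at most 56.9, WT at least 60.7) and Vim (KO at least 51.9, WT at most 51.6), and they overlap for the other 8 genes.

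Per kilobase of exon the levels in WT spanned a wide range. Sox2 was highest at 31.7 ± 2.08 RPKM (SD, n = 7), followed by Id3 at 27.3 ± 1.75, Hes5 at 22.4 ± 3.22, Vim at 22.2 ± 0.767, Id1 at 18.3 ± 1.54, Id4 at 17.2 ± 2.51 and Hes1 at 12.9 ± 1.45 RPKM. Notch1 (6.02 ± 0.965), Prom1 (5.99 ± 0.567) and Mki67 (0.762 ± 0.0984) were the lowest. Hes5 and Vim, Id1 and Id4, and Notch1 and Prom1 lay within their spread of each other. In KO the order of the RPKM levels was Sox2 (25.8 ± 1.54, n = 5), Vim (24.4 ± 0.561), Id3 (24.3 ± 0.962), Id1 (22.6 ± 3.40), Hes5 (18.9 ± 3.51), Id4 (13.4 ± 1.29), Hes1 (13.2 ± 2.28), Prom1 (7.52 ± 0.867), Notch1 (6.87 ± 0.387) and Mki67 (1.10 ± 0.176). Of these neighbours Id1 and Hes5, Hes5 and Id4, Hes1 and Prom1, and Notch1 and Mki67 were further apart than the larger SD of the pair, and the others were not.

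Notch1, the receptor, did not pass the test. Its level ran from 43.6 to 68.6 CPM in WT (median 59.7) and was 62.2, 70.0, 65.7, 60.9 and 67.0 CPM in KO 1, 2, 3, 4 and 6. All 5 KO mice lay above the WT median, but WT 3, WT 4 and WT 6 lay among them. On the log2 scale KO was higher by 0.19 ± 0.09 (SE; edgeR adjusted p = 0.134), and by 0.056 ± 0.087 with density offsets. WT was the more variable group, with an SD of 9.16 CPM against 3.68 in KO. The opposite-strand genes 0610009E02Rik and Gm13568 share 1068 and 414 exonic bases with Notch1, and the sources used here do not say whether counting used strand.

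Hes1 was at nearly the same level in both groups. It ran from 15.5 to 21.4 CPM in WT (median 19.9) and was 21.3, 13.7, 19.4, 20.9 and 21.9 CPM in KO 1, 2, 3, 4 and 6. Its log2 fold change was 0.037 ± 0.116 (SE; edgeR adjusted p = 0.835) and turned to -0.048 with density offsets. The lowest library of each group, KO 2 and WT 4, had the highest striatal marker sum of its group, 1627 and 1991 CPM, and the part of this in the Hes1 values was not tested. Without both libraries the log2 fold change was 0.083 ± 0.086 (adjusted p = 0.510).

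Hes5 was lower in 4 of the 5 KO mice without passing the test. It ran from 23.0 to 34.7 CPM in WT (median 27.6) and was 24.7, 23.3, 21.6 and 19.5 CPM in KO 1 to 4, while KO 6 was at 31.3 CPM. Hes5 had a log2 fold change of -0.25 ± 0.12 (SE; edgeR adjusted p = 0.127). Without KO 6 it was -0.36 ± 0.11 and passed (adjusted p = 0.0269), so this library decides the call. The promoter of Hes5 is the one above that holds TGGGAA at 2 places. Gm20421, on the opposite strand and not in the count table, shares 433 exonic bases with it.

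The Id genes went in both directions. Id1 was 21.1, 18.7, 19.8, 19.2 and 26.5 CPM in KO 1, 2, 3, 4 and 6 and ran from 14.8 to 18.9 CPM in WT (median 17.2). KO 2 lay just inside the WT range, below WT 4 and WT 1, and KO 6 lay well above every other mouse. Id1 rose by 0.30 ± 0.10 on the log2 scale (SE; edgeR adjusted p = 0.0322). Without KO 6 it was 0.20 ± 0.08 and missed the threshold (adjusted p = 0.0959), as it did without WT 2, WT 3 or WT 7 (0.0544, 0.0627 and 0.0535), and it was 0.27 with density offsets (adjusted p = 0.0652).

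Id3 was slightly lower. The KO libraries held 29.7, 31.3, 30.6, 30.5 and 32.9 CPM, and WT ran from 32.7 to 39.0 CPM (median 34.0). KO 6 lay above WT 7 and the other 4 KO mice lay below every WT mouse. The log2 fold change of -0.17 ± 0.06 (SE) had an edgeR adjusted p of 0.0343, and the call was lost in 7 of the 12 fits that left out 1 library (without KO 1, KO 2, KO 3, KO 4, WT 3, WT 4 or WT 5, with adjusted p up to 0.0773) and with density offsets (-0.16, adjusted p = 0.0664).

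Id4, which astrocytes and adult neural stem cells express, fell more. It was 55.2, 57.9, 46.3, 50.5 and 47.6 CPM in KO 1, 2, 3, 4 and 6, and ran from 54.0 to 85.3 CPM in WT (median 66.0). KO 1 and KO 2 overlapped only with WT 2, the lowest WT mouse. Its log2 fold change of -0.36 ± 0.09 (SE; edgeR adjusted p = 0.00999) passed in all 12 fits without 1 library and was -0.43 ± 0.09 with density offsets (adjusted p = 0.00763). In its bin of genes by count density, where the median was 0.065, only 1.12% of the 1423 genes had a lower log2 fold change. WT 4 stood apart at 85.3 CPM, and leaving it out gave -0.30 ± 0.07 (adjusted p = 0.00449). The antisense gene A330033J07Rik shares 82 exonic bases with Id4. It was counted at 2.66 ± 0.796 CPM in WT and 3.70 ± 0.840 in KO and did not pass (log2 fold change 0.47, adjusted p = 0.121).

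The ratio of 2 genes within a library does not depend on the library's scaling, and 4 ratios of family members were compared after the values had been seen. The ratio of Id1 to Id3 was 0.710, 0.597, 0.647, 0.631 and 0.805 in KO 1, 2, 3, 4 and 6, and ran from 0.401 to 0.560 in WT (median 0.503). The ratio of Id1 to Id4 was 0.382, 0.323, 0.428, 0.381 and 0.557 in the same KO mice, and ran from 0.221 to 0.311 in WT (median 0.261). In both the KO mice lay above every WT mouse. The log2 ratios were 0.46 and 0.64 higher in KO, each with an exact two-sided permutation p of 0.00126 over 792 arrangements of the libraries (n = 7 and 5), the smallest it can give, and 0.00253 adjusted over the 4 ratios. Id1 had been called higher and Id3 and Id4 lower in these same libraries, so these p values are no separate support. The adjustment over the 4 ratios does not cover that choice. Leaving out any 1 library gave log2 differences of 0.40 to 0.51 and of 0.53 to 0.73, with exact permutation p at most 0.00303. Since the groups do not overlap, each of these p values had to be the smallest possible, so they add no support. The ratios were not fitted with the total as a covariate. The ratio of Id3 to Id4 (0.18 higher on the log2 scale, exact two-sided permutation p = 0.0833) and of Hes1 to Hes5 (0.28, exact permutation p = 0.177) did not pass, and these had adjusted values of 0.111 and 0.177. Id3 to Id4 passed with density offsets (0.26, exact permutation p = 0.0189, unadjusted) and without KO 1, KO 2 or WT 2 (unadjusted exact permutation p of 0.0485, 0.0485 and 0.0411).

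**Figure D2:**
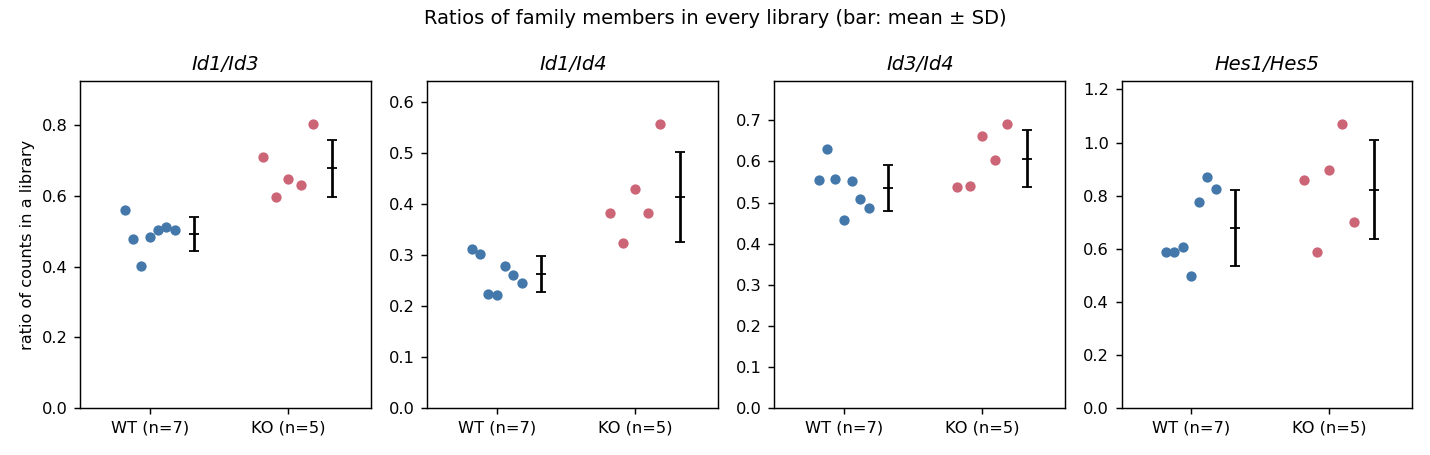
Ratio of the counts of 2 family members within each library (vertical axes from 0) for WT (blue, n = 7) and KO (red, n = 5), with mean and SD as bars. The lowest KO ratio lies above the highest WT ratio for Id1 to Id3 (0.597 against 0.560) and for Id1 to Id4 (0.323 against 0.311), while the groups overlap for the other ratios.

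Sox2, the transcription factor of the stem cell state, fell in every KO mouse. It was 51.9, 56.9, 48.8, 55.4 and 52.4 CPM in KO 1, 2, 3, 4 and 6, and ran from 60.7 to 72.1 CPM in WT (median 63.8). No KO mouse reached the lowest WT mouse, as in 4.80% of all tested genes. The level was 65.2 ± 4.29 CPM in WT and 53.1 ± 3.17 in KO (SD, n = 7 and 5), or 81.5% of WT, with a log2 fold change of -0.30 ± 0.06 (SE; edgeR adjusted p = 0.00171). The call held in all 12 fits that left out 1 library and with density offsets (-0.26 ± 0.06, adjusted p = 0.00814). The call was lost with the total as a covariate (-0.32 ± 0.10, adjusted p = 0.191), where the SE grew and the log2 fold change did not shrink. Sox2 lies within the bounds of Sox2ot, a noncoding gene on the same strand that shares no exonic base with it. Sox2ot was at 47.4 ± 2.41 CPM in WT and 50.4 ± 7.04 in KO and did not pass (log2 fold change 0.092, adjusted p = 0.391).

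Prom1, which encodes prominin 1 (CD133), rose by 0.33 ± 0.09 on the log2 scale (SE; edgeR adjusted p = 0.0105). It was 32.9, 25.1, 31.4, 30.2 and 34.3 CPM in KO 1, 2, 3, 4 and 6, and ran from 22.1 to 28.7 CPM in WT (median 24.2). KO 2 lay inside the WT range and the other 4 KO mice lay above it. The call held in all 12 fits without 1 library, but density offsets gave 0.19 ± 0.10 (adjusted p = 0.190). Genes of its count density had a median of 0.15.

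Vim, the intermediate filament vimentin, showed the smallest rise of the 4 genes that rose. It was 52.6, 54.6, 54.0, 51.9 and 54.5 CPM in KO 1, 2, 3, 4 and 6, and ran from 46.8 to 51.6 CPM in WT (median 47.9). Every KO mouse lay above every WT mouse, as in 5.84% of all tested genes, with a gap between KO 4 and WT 3 of under 1 CPM. Vim rose by 0.14 ± 0.04 on the log2 scale (SE; edgeR adjusted p = 0.0240), and by 0.13 ± 0.04 with density offsets (adjusted p = 0.0441). Its call was lost without KO 2, KO 6 or WT 4 (adjusted p of 0.0542, 0.0505 and 0.0698) and with DESeq2 (0.161).

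Mki67, the proliferation antigen Ki-67, had the largest log2 fold change of the 10 genes and the lowest counts. The libraries held 40, 70, 78, 75 and 79 counts in KO 1, 2, 3, 4 and 6 and 28 to 42 in WT. In CPM the KO mice were at 8.18, 10.9, 11.5, 11.5 and 13.0, against 5.99 to 8.83 in WT (median 7.36), so KO 1, the shallowest KO library, lay inside the WT range and the others above it. Its log2 fold change of 0.53 ± 0.13 (SE; edgeR adjusted p = 0.00744) held in all 12 fits without 1 library. Its count density was in the lowest of the 10 bins, where the median log2 fold change was 0.25. With density offsets it was 0.26 ± 0.13 (adjusted p = 0.168) and the total as a covariate gave 0.28 ± 0.22 (adjusted p = 0.635).

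**Figure D3:**
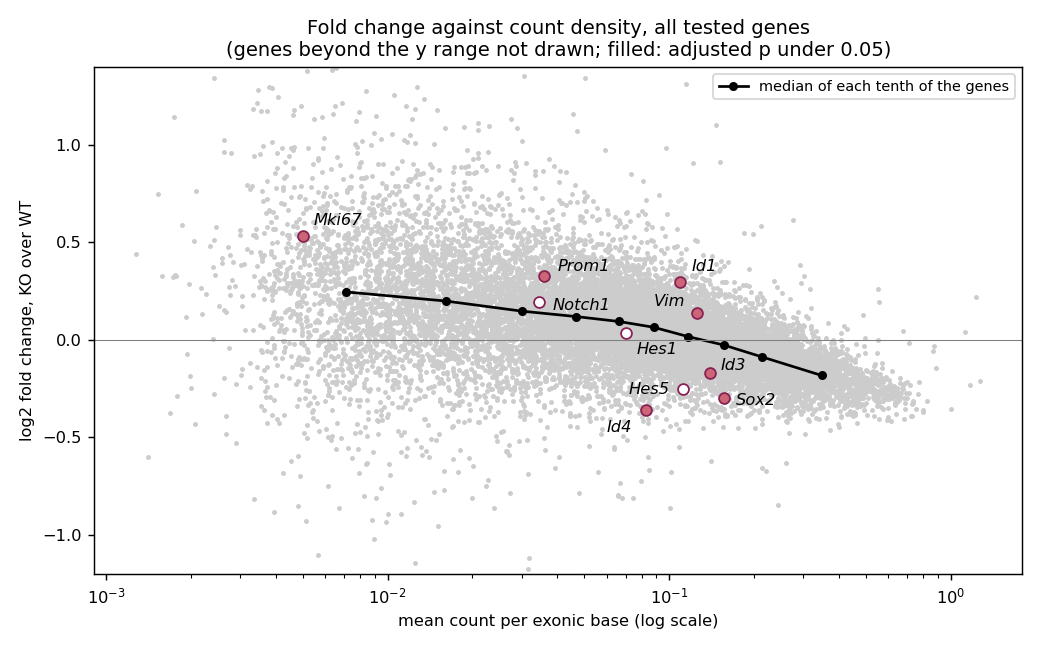
Log2 fold change (KO over WT) of every tested gene against its mean count per exonic base (log axis), with the median of each of 10 bins as a black line (genes beyond the vertical range are not drawn) and the 10 genes as large circles, filled where the adjusted p is under 0.05. Mki67 lies in the lowest bin, where the median is 0.25, while Sox2, Id4 and Hes5 lie below the line and Id1 above it.

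Against genes counted as densely, the falls of Id4 and Sox2 and the rise of Id1 lay near the edges, and the rises of Prom1, Mki67 and Vim less so. Among the tested genes of the same bin, 2.67% had a lower log2 fold change than Sox2, 3.38% than Hes5 and 13.4% than Id3, while 96.6% lay below Id1, 82.0% below Vim, 80.8% below Mki67 and 79.3% below Prom1. Notch1 (58.8%) and Hes1 (36.6%) lay in the middle. These shares are descriptions with no test.

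**Figure D4:**
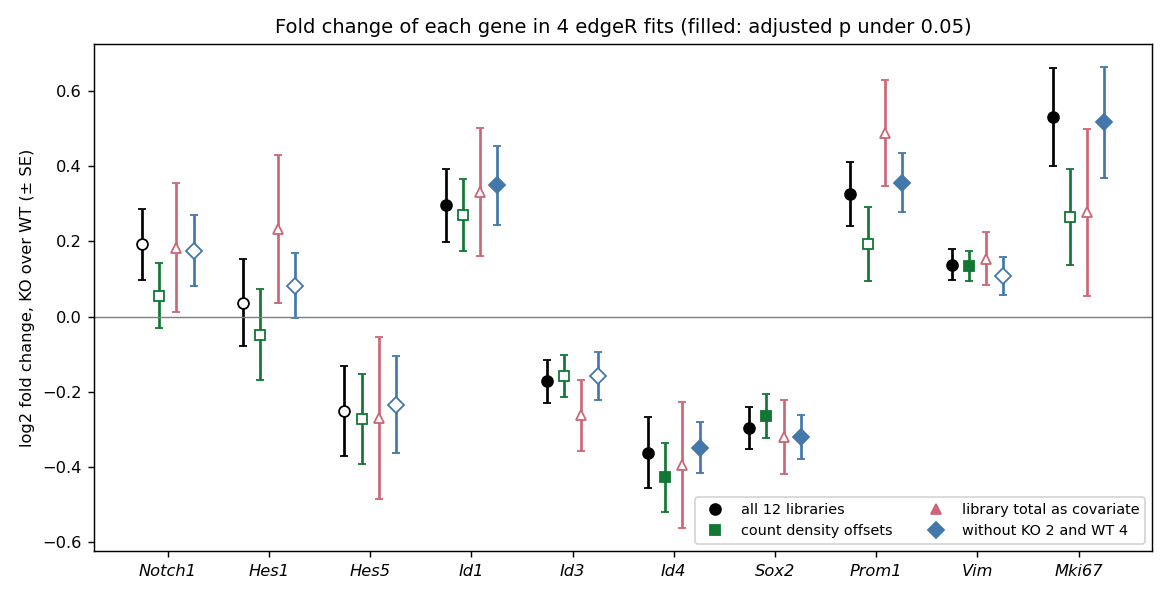
Log2 fold change (KO over WT, ± SE) of each gene in 4 edgeR fits: all 12 libraries, count density offsets, library total as a covariate, and without KO 2 and WT 4, with filled symbols where the adjusted p is under 0.05. Sox2 and Id4 are below 0 and filled in 3 of the 4 fits, Mki67 shrinks from 0.53 to 0.26 with density offsets, and no gene is filled in the covariate fit.

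Other genes of the pathways were taken from lists and read beside the same fit. Over all tested genes the median log2 fold change was 0.034, with 15.3% called higher and 14.4% lower. With density offsets the median was 0.0018, with 8.37% called higher and 8.02% lower. With the total as a covariate none of the 163 tested genes in these pathway lists passed in edgeR. An unadjusted p was under 0.05 in 19 of them, and every pathway call below was lost in that fit. The share of all genes with an unadjusted p under 0.05 was not taken in any fit. Such counts of genes, here and below, therefore have no background to be read against. Among 12 Notch ligands and regulators of ligands 1 rose, the ligand Jag2 (0.23 ± 0.05 SE, edgeR adjusted p = 0.00364), and 1 fell, the ubiquitin ligase Neurl1a (-0.21 ± 0.05), with a list median of 0.0056. Neither passed with density offsets. Among 21 genes of Notch receptors and their processing 7 rose and 1 fell (median 0.038). The protease Furin (0.26 ± 0.05), the fucosyl-glycan modifier Lfng (0.27 ± 0.07), the fucosyltransferase Pofut1 (0.28 ± 0.08) and the receptor Notch3 (0.37 ± 0.11) rose, and the gamma-secretase subunit Psenen fell (-0.21 ± 0.07). Notch2 and Notch4, named after their values were seen, were at 0.34 ± 0.11 and 0.42 ± 0.15 (adjusted p of 0.0248 and 0.0423), while Notch1 missed the threshold. With density offsets Furin alone of the risers in that list passed (0.18, adjusted p = 0.0260).

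Among 18 nuclear partners, targets and co-repressors of Notch 2 rose and 3 fell (median 0.11). Spen, a co-repressor that binds RBPJ, rose by 0.58 ± 0.08 (SE; edgeR adjusted p = 3.88e-04), from 129 ± 19.2 CPM in WT to 193 ± 9.73 in KO, and the co-repressor Tle3 rose by 0.27 ± 0.06. The Notch targets Nrarp, a feedback inhibitor of the pathway, and Hey1, a bHLH repressor of the Hes family, fell, at -0.35 ± 0.08 and -0.18 ± 0.05, as did Dtx3 (-0.16 ± 0.04). Spen, Tle3 and Nrarp passed with density offsets (0.50, 0.21 and -0.41), and Hey1 and Dtx3 did not, at -0.11 and 0.060.

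On the BMP side, which feeds the Id genes, 3 of 14 ligands and antagonists rose and 1 fell (median 0.17). The ligands Bmp7 (0.35 ± 0.08, edgeR adjusted p = 0.00619) and Bmp6 (0.60 ± 0.15) and the activin antagonist Fst (0.73 ± 0.17) rose, and Nog, the BMP antagonist noggin, fell (-0.36 ± 0.11, adjusted p = 0.0222). With density offsets Fst, Bmp6 and Nog passed (0.54, 0.45 and -0.46) and Bmp7 did not (0.23, adjusted p = 0.0546). The covariate fit gave 0.29 for Bmp6 and 0.15 for Bmp7 (adjusted p of 0.656 and 0.664). None of the 15 BMP receptors and SMAD genes passed in edgeR's test (median 0.067), with 1 of them at an unadjusted p under 0.05 and 0 called by DESeq2. The smallest p values were those of the receptor Acvr2b (0.34 ± 0.14, adjusted p = 0.0849) and the endothelial co-receptor Eng (0.25 ± 0.12, adjusted p = 0.128), and 2 of the 15 were called lower with density offsets (Smad7 and Bmpr1b). Of 13 tested bHLH factors and partners the fourth Id gene, Id2, fell (-0.31 ± 0.06, adjusted p = 0.00173, and -0.14 with density offsets, adjusted p = 0.0356) and Olig2, a factor of the oligodendrocyte lineage, rose (0.24 ± 0.05).

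Transcription factors of neural identity were lower where they passed. Of 15 tested 4 fell and none rose (median -0.088), against 14.4% of all tested genes called lower. With density offsets 5 fell (median -0.17), against 8.02% of all tested genes. Sox9, a partner of Sox2 in stem cells and a factor of astrocytes, fell by 0.39 ± 0.07 (SE, edgeR adjusted p = 0.00142). It went from 45.1 ± 4.47 CPM in WT to 34.3 ± 2.08 in KO. Every KO mouse lay below every WT mouse, as in 4.80% of all tested genes. Emx2 (-0.38 ± 0.11) and Pou3f3 (-0.27 ± 0.08), factors of forebrain development, also fell, and both passed with density offsets, as did Sox9. In the covariate fit Pou3f3 turned to 0.030 (adjusted p = 0.914), while Sox9 and Emx2 were at -0.37 and -0.32 without passing (0.235 and 0.499).

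Among 15 tested markers of radial glia and progenitors 1 rose and 4 fell (median 0.025). The matrix protein Tnc rose by 0.84 ± 0.17 (edgeR adjusted p = 0.00270), and Hopx (-0.36 ± 0.08), Cd9 (-0.24 ± 0.06), the glutamate transporter Slc1a3 (-0.23 ± 0.05) and the receptor Fgfr3 (-0.17 ± 0.05) fell. Only Tnc and Hopx of these 5 passed with density offsets, at 0.60 and -0.34, and Slc1a3 was then at -0.0029. In the covariate fit Tnc was at 0.30 and Hopx at -0.17 (adjusted p of 0.658 and 0.591). Of 13 tested intermediate filament and linker genes, the relatives of Vim, 3 rose, the neurofilament Nefh (0.24 ± 0.07), the lamin Lmnb2 (0.18 ± 0.06) and the linker Plec (0.19 ± 0.06), and Nefl fell (-0.24 ± 0.05), with a median of 0.13. Nefh alone of these passed with density offsets (0.27). Of 4 genes set beside Prom1, Cd44 rose (0.61 ± 0.20) and Ttyh1 fell (-0.19 ± 0.05), and neither passed with density offsets (0.35 and 0.022). The covariate fit turned the direction of Cd44 (-0.057), Ttyh1 (0.0031) and Lmnb2 (-0.017).

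Of 25 tested cell cycle genes, the partners of Mki67, 5 rose and 1 fell (median 0.12, and -0.020 with density offsets). Top2a, a DNA topoisomerase of dividing cells, rose by 0.46 ± 0.12 (SE; edgeR adjusted p = 0.0125), the spindle factor Tpx2 rose by 0.57 ± 0.12, the helicase subunit Mcm7 by 0.33 ± 0.07 and the cyclin Ccnd2 by 0.20 ± 0.06. Pcna, the sliding clamp of DNA replication, fell (-0.20 ± 0.05). With density offsets Mcm7 (0.21), Ccnd2 (0.19) and Pcna (-0.15) passed, while Tpx2 (0.34, adjusted p = 0.0633) and Top2a (0.23, adjusted p = 0.249) did not.

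**Figure D5:**
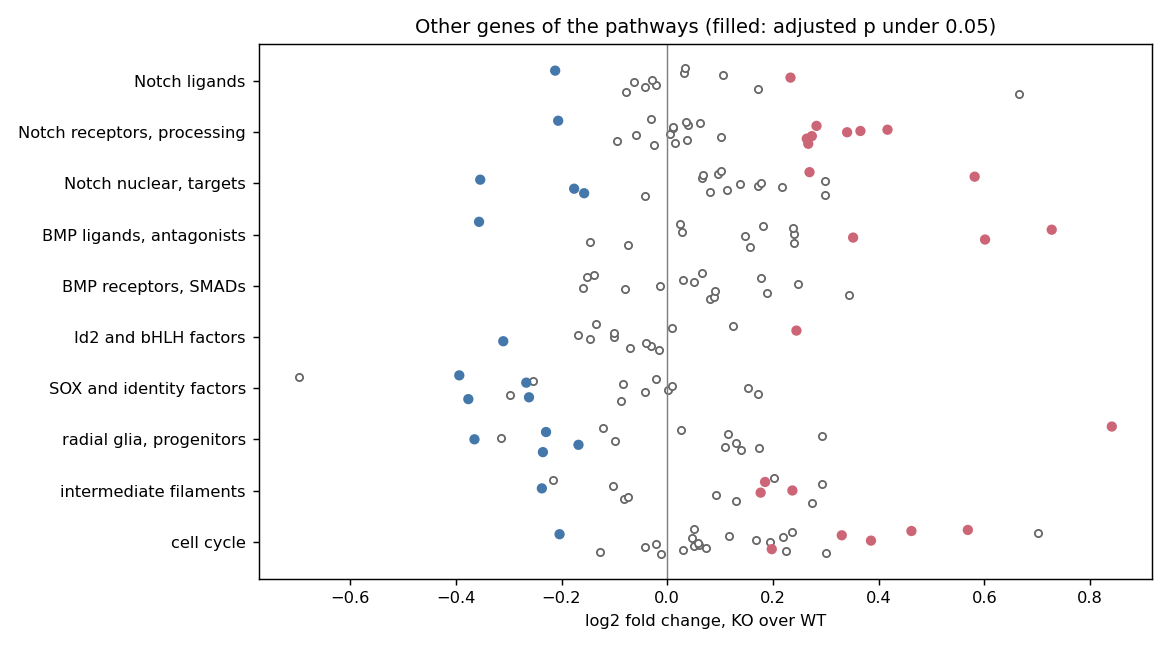
Log2 fold change (KO over WT) of the other tested genes in 10 pathway lists, 1 circle per gene, filled red where higher and blue where lower at an adjusted p under 0.05. Called genes lie on both sides of 0 in most lists, the 15 BMP receptors and SMAD genes have none, and the 4 called SOX and identity factors are all below 0.

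Markers of the cell types that express these genes also differed. Over all tested genes 15.3% were called higher and 14.4% lower, and 8.37% and 8.02% with density offsets. In the highest bin of count density 67.6% of genes were called lower. It holds the neuronal markers Snap25 and Camk2a and the astrocyte marker Slc1a2, for instance. Fewer cells of a type and less RNA per cell cannot be told apart in bulk tissue. Of 15 astrocyte markers 6 fell and none rose, with a summed level of 3969 to 4626 CPM in WT and 3580 to 4271 in KO, but with density offsets 1 fell (Aldoc). The astrocyte markers Aqp4, Aldh1l1 and Gja1 had log2 fold changes of 0.050, -0.072 and -0.087 and did not pass. Of 8 markers of oligodendrocyte precursors, which also express Sox2, 6 rose and 1 fell, with sums of 652 to 739 CPM in WT and 700 to 767 in KO. Of 15 endothelial markers 6 rose and 1 fell, with sums of 534 to 594 CPM in WT and 572 to 660 in KO. Among 8 markers of meningeal fibroblasts 5 rose. Their sums of 162 to 211 CPM in WT and 221 to 275 in KO did not overlap. Pdgfra, at 94.9 ± 11.9 CPM in WT and 115 ± 7.27 in KO, is a riser in both the precursor and the fibroblast list. It is the largest part of the fibroblast sum. With density offsets 3 precursor, 1 endothelial (Slc2a1) and 2 fibroblast markers rose, and 1 precursor marker fell (Cspg5, -0.10, edgeR adjusted p = 0.0221). Slc2a1 also passed with the total as a covariate (0.42 ± 0.06, edgeR adjusted p = 0.00549). Of 12 microglial markers 7 fell, 5 with density offsets and 1 with the total as a covariate (Fcrls), and their sums did not overlap (689 to 861 CPM in WT, 622 to 645 in KO). Of 12 neuronal markers 10 fell, and of 10 oligodendrocyte markers 3 fell, with sums of 1755 to 2023 CPM in WT and 1597 to 1868 in KO. With density offsets 0 of either list passed. None of 9 tested ependymal markers, the cells that carry Prom1 and Vim at the ventricle, passed in edgeR, with an unadjusted p under 0.05 in 2 of them and 0 called by DESeq2, and their sum was 46.6 to 71.1 CPM in WT and 55.9 to 113 in KO. The part of these differences in the levels of the 10 genes was not tested.

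The 10 genes were also compared pair by pair within the groups. Over the 12 libraries, with group means removed, 24 of the 45 pairs had a positive Pearson correlation and none passed a permutation test of 100000 resamples after adjustment over the 45 pairs, with 2 at an unadjusted p under 0.05. The strongest was between Sox2 and Hes1 (Pearson r = -0.69, permutation p = 0.0144, adjusted 0.619; Spearman rho = -0.55, permutation p = 0.0787), and r was -0.53 without the 2 libraries farthest in Sox2. In the 7 WT libraries alone none passed the permutation test after adjustment either, with 4 at an unadjusted p under 0.05. The strongest there were Id3 with Hes1 (r = -0.91, rho = -0.75, permutation p = 0.00818) and Sox2 with Hes1 (r = -0.91, rho = -0.96, permutation p = 0.00439), each with an adjusted p of 0.184. Among 14271 genes with a mean log2 CPM of at least 1, those whose group-centred log2 CPM was most like that of Sox2 over the 12 libraries were Pdgfra (r = 0.92), a marker of oligodendrocyte precursors, Tns3 (0.90) and Cpne3 (0.89). For Id4 they were Rfx3 (0.97), Meis2 (0.96) and Gucy1a3 (0.95), for Hes1 Kcns1 (0.95), Cadps2 (0.94) and Fbxo27 (0.94), and for Notch1 Glcci1 (0.96), Pdcd6ip (0.95) and Clock (0.94). For Id1 they were Tfb2m (0.93), 4930526I15Rik (0.88) and Nol8 (0.88), and for Id3 Sec14l3, Fos (0.88 each) and Kank2 (0.86). For Hes5 they were Rab40c (0.93), Vac14 (0.86) and Prpf38a (0.85), and for Prom1 they included Ifrd1 (0.91) and Ptprj (0.90). Mki67 was most like Mettl3 (0.96), Farsa (0.90) and Prpf6 (0.89), and Vim like Tlcd1 (0.88), Acot11 (0.83) and Fam72a (0.82). These are the highest of many values over 12 libraries that share depth and dissection, and are descriptions with no test.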

How the data were processed

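The deposited table held whole-number read counts per RefSeq gene for 12 frontal cortex libraries, neither normalized nor pooled. RNA was isolated with Trizol and a kit, per the labels' protocols. The submitters' processing notes name STAR and mm10. The counter, its strand setting and any handling of duplicate reads are not stated there. Groups and mouse numbers came from the titles.

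The counts were fitted with edgeR 4.0.16 in R 4.3.3 (TMM, filterByExpr, quasi-likelihood test, group as the only term, Benjamini-Hochberg adjustment at 0.05). The SE is the log2 fold change divided by the root of the quasi-likelihood F. Exonic lengths came from GENCODE M21 (GRCm38, the same build) through RefSeq accessions for 14734 genes and through symbols for 123, and 52 had none. Density offsets are lowess trends (span 0.3) of each library's log2 CPM on log2 count per exonic base, and the 46 tested genes without a length got none. Other settings were DESeq2 1.42.0, its size factors, no filter, a replicate block, log2 of the total as a covariate, and fits without each library or without KO 2 and WT 4. Counts of WT 6 and WT 7 were closest to each other (chi-square over its degrees of freedom 1.02, p = 0.0175; next 1.20). A value of 1 is what counting noise alone would give. The titles of WT 6 and WT 7 name separate mice, and they were kept apart. Summing them as 1 library was added after seeing the data, for the edgeR fit only and not for the ratios or correlations.

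The fits were tested on simulated counts. The members and lists were chosen with earlier results of these data known. Named besides them are Upf3b, up to 4 called genes of each pathway list in each direction by smallest p (or 2 where none was called), and the 3 genes most like each member. Some genes that this rule names are not reported here.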

Additional observations from a re-analysis of the deposited data

Results flagged for a closer look

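1 of 22 groups of values (10 genes and Upf3b, in each group of mice) held a mouse far from the rest, where chance gives about 1 in 20. Id4 in WT 4 was at 85.3 CPM, while the other 6 WT mice lay between 54.0 and 67.4 CPM. Its gap to the nearest mouse was 0.572 of the group's range. WT 4 also had the highest summed striatal markers (1991 CPM) and olfactory neuroblast markers (617 CPM) of the 12 libraries, and their part in the Id4 value was not tested. Id4 stayed lower in KO without WT 4, at a log2 fold change of -0.30 (edgeR adjusted p = 0.00449).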

How the results depend on the processing

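Over all genes, 2183 were higher and 2050 lower as fitted, and 1676 and 2191 with the DESeq2 Wald test. The counts were 1195 and 1145 with density offsets, 84 and 11 with the total as a covariate, and 1129 and 1186 with the replicate block. Leaving out 1 library gave 1585 to 2420 higher and 1544 to 2467 lower genes. Of the 10 genes 4 were higher and 3 lower as fitted. With the DESeq2 Wald test 2 were higher (Mki67 and Prom1) and 2 lower (Sox2 and Id4). With density offsets 1 was higher (Vim) and 2 were lower (Sox2 and Id4). The total as a covariate left 0 higher and 0 lower, and the replicate block 1 higher (Prom1) and 1 lower (Sox2). Leaving out 1 library gave 2 to 4 higher and 2 to 4 lower, with 2 higher without KO 6. Over all genes, same-numbered mice had correlations of -0.38 to 0.14, and none of the 5 KO mice correlated best with its own number. Differences in depth and dissection enter these correlations, so they cannot tell whether the numbers pair the mice in some way. Hes1 turned to -0.048 with density offsets, -0.011 without KO 6 and -0.022 without WT 4. Sox2 kept its direction in every setting run and lost its call only with the total as a covariate. Upf3b and the correlations between pairs kept their side of the threshold in every setting run. Vim lost its call with DESeq2 size factors (adjusted p = 0.0522). With WT 6 and WT 7 as 1 library all 10 genes kept their calls. The cause of these changes was not tested. Mki67 rests on 28 to 79 counts per library, which limits its precision.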
